A study of Mus musculus with 6 samples.

Results

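The genes described here are 38 nucleoporins, RAN regulators and transport receptors, out of 23358 gene rows in the deposited count table. They were chosen by name from the table's gene symbols, with the change between NU7441 and DMSO in these same samples already known, so every count and fold change of that contrast is given as a description and supports nothing. All 38 symbols were found, each in 1 row, and 37 passed the filter on low counts. They were divided by place and role into the Y complex (9 genes), the inner ring (5), membrane-anchored parts (3), the central channel (4), the cytoplasmic face (6), the nuclear basket (3), the RAN cycle (4) and transport receptors (4).

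The cells were MC3T3-E1, a pre-osteoblast line from the calvaria of C57BL/6 mice that can lay down bone matrix in culture. Confluent cells were exposed for 16 h either to 1 µM NU7441, a small-molecule inhibitor of the DNA-dependent protein kinase, or to its solvent DMSO, with 3 sequenced samples in each group. All samples come from this 1 cell line, and the labels name no genetic change. Triplicates within 3 separate experiments were combined according to the study design, which does not give how the sample numbers relate to those experiments, so p-values measure only the spread between these samples, which may be technical.

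The nuclear pore complex is the channel through which proteins and RNA pass between nucleus and cytoplasm. Its scaffold, the Y complex and the inner ring, holds a channel lined by proteins with phenylalanine-glycine repeats, with filaments on the cytoplasmic side and a basket on the nuclear side. Direction comes from the small GTPase RAN: RCC1 loads it with GTP in the nucleus, RANGAP1 triggers GTP hydrolysis in the cytoplasm, and importins and exportins bind or release cargo according to which nucleotide RAN holds. In dividing vertebrate cells the complex is taken apart and rebuilt at each mitosis, when RAN also guides spindle assembly and some nucleoporins sit at kinetochores.

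Total gene counts were 52150994 to 55021692 in NU7441 and 47312968 to 71292628 in DMSO samples, and the biological coefficient of variation over all genes was 5.6%. Of 13784 genes tested with edgeR, 16.6% were called lower and 14.1% higher in NU7441 at an adjusted p of 0.05, with a median log2 fold change of 0.01. The share of calls that were higher was 45.9% with TMM scaling and 56.5% with upper-quartile scaling. Osteoblast markers other than Bglap were present in both groups. RPKM (reads scaled by gene length and library size) over 8 genes summed to 7010 to 7050 in NU7441 and 6770 to 7210 in DMSO. Most of it came from Col1a1 and Col1a2. Bglap was near absent, with 6, 12 and 6 counts in NU7441 samples and 2, 12 and 6 counts in DMSO samples, and was not tested. Of the 7 tested, the matrix gene Ibsp (54.1% of DMSO, edgeR adjusted p = 0.00041) and Alpl (81.6%, 0.006) were lower, while Spp1 (119%, 5.2e-06) and Col1a2 (104%, 0.024) were higher. The blood-cell markers Ptprc and Emr1, the endothelial Kdr and Tie1, the epithelial Epcam, Krt8 and Krt18, the muscle marker Myod1 and the cartilage marker Acan were at 0 in every sample. Summed levels lay between 4.25 and 5 RPKM for the 6 blood-cell markers and at most 1.29 RPKM for the adipocyte, endothelial, muscle and epithelial lists in both groups, while 5 cartilage markers summed to 15.2 to 16.2 RPKM in NU7441 and 14.4 to 14.8 RPKM in DMSO, mostly from Sox9, which was called higher (110% of DMSO, edgeR adjusted p = 0.0058), as was Col2a1 (117%, 0.046).

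Promoter sequences were available from RefSeq (build GRCm38.p6) for 33 of the 38 genes and are shown for the members with the most and the least change. Each line gives, 5′ to 3′ on the gene's own strand, the 250 bases upstream of the annotated start. They are chr11:106999526-106999775 (minus strand) for Kpna2, chr15:81729920-81730169 (minus) for Rangap1, chr16:18248695-18248944 (minus) for Ranbp1, chr10:117792706-117792955 (minus) for Nup107 and chr1:150392588-150392837 (plus) for Tpr. Kpna2 and Rangap1 had the largest falls, Ranbp1 is a RAN cycle gene with 3 of the motifs searched, Nup107 had the largest fall among the nucleoporins of the group and Tpr the smallest change. Capitals mark matches, on either strand, to a CHR element (TTTGAA), to the CCAAT box, to an E-box (CACGTG), an E2F site (TTTGGCGC or TTTCGCGC), the NRF1 core (GCATGCGC) or an ETS site (CCGGAAG).
Kpna2: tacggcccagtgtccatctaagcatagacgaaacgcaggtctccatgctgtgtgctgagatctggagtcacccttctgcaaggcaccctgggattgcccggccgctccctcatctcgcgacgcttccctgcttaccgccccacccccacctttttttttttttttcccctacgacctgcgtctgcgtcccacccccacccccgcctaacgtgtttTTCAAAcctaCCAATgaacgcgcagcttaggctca
Rangap1: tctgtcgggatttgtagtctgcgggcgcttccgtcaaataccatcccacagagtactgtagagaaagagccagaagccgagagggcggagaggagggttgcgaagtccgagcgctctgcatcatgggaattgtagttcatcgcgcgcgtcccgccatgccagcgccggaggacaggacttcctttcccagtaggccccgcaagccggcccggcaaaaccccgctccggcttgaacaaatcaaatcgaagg
Ranbp1: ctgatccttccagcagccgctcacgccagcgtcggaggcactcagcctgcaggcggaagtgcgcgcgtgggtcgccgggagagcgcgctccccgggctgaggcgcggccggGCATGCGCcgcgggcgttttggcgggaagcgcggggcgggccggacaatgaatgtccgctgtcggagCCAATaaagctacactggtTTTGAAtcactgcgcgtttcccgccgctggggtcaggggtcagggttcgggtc
Nup107: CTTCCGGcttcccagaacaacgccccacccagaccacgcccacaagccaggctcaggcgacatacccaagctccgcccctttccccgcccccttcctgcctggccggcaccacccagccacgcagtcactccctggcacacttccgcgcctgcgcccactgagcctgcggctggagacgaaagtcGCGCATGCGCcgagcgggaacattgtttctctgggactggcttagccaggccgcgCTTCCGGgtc
Tpr: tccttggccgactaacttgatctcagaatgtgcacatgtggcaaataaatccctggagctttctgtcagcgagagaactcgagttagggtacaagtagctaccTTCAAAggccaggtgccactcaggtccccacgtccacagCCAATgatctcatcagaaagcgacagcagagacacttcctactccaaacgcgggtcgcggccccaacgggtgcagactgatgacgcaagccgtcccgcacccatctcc

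The Kpna2 window held a CHR element 35 bases before the start, with a CCAAT box 25 bases before it. Ranbp1 had the same letters 53 and 72 bases before the start, together with an NRF1 core, and Tpr, whose RNA changed least, also had both. Nup107 had NRF1 letters on both strands, overlapping, 65 and 63 bases before the start, and ETS letters 250 and 10 bases before it. Rangap1 had no match to any of the letters. Its annotated start was not matched to the start of a GENCODE M21 transcript, unlike those of Kpna2, Ranbp1, Nup107 and Tpr, so its window is less certain. A CHR element was found in 8 of 33 members (24.2%), in 18.3% of 27025 promoters of the same length and in 12.8% of those of 9650 tested genes. The NRF1 core, which is almost a palindrome and often matches on both strands at overlapping bases, was found in 5 members (15.2%), in 2.56% of all promoters and in 4.86% of those of tested genes. The 5 were Nup107, Nup50, Nup62, Ran and Ranbp1. E-boxes were found in 15.2% of members, 6.86% of all promoters and 9.7% of those of tested genes, and CCAAT boxes in 42.4%, 37.5% and 40.5% of the same sets. ETS sites were found in 18.2% of members, 7.83% of all promoters and 15% of those of tested genes. The E2F letters searched, TTTGGCGC or TTTCGCGC, were found in 0 of 33 members, 0.759% of all promoters and 1.48% of those of tested genes. Other forms of the E2F site were not searched and would stand in lower case in the windows shown. This count therefore does not show that members lack E2F sites. The windows of members were richer in G and C, with a median of 63.6%, against 59.6% for tested genes and 52.4% for all promoters, and a match says only that these letters are present.

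RNA of most of the listed members was lower in NU7441. In the edgeR fit 33 of the 37 tested members were lower and 0 higher, against 16.6% lower and 14.1% higher over all tested genes. The median log2 fold change was -0.34, against 0.01 over all genes. For all 37 the NU7441 samples lay below every DMSO sample in CPM (counts scaled to a common library size), where 42.8% of all tested genes had groups that did not overlap, and nothing is read from either count because the members were picked with this contrast known. Most falls were moderate: 2 members were at or below -1 on the log2 scale, 14 lay between there and -0.40, 8 between -0.40 and -0.20, and 13 were smaller. RPKM summed over all 38 genes was 598, 588 and 587 in NU7441 samples and 804, 790 and 801 in DMSO samples. The 8 RAN cycle and receptor genes summed to 66.0% of their DMSO mean and the 30 nucleoporins to 81.6%.

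Genes of the cell cycle moved with this group. All 30 genes of a list for G2/M and mitosis were lower, with a median log2 fold change of -1.41. So were all 30 of a list for G1/S and replication, with a median of -0.88, against 16.6% lower over all tested genes. Summed RPKM of the mitosis list was 205, 170 and 161 in NU7441 samples and 510, 457 and 451 in DMSO samples. Summed RPKM of the replication list was 293, 301 and 289 in NU7441 samples and 522, 530 and 528 in DMSO samples. The part of these genes in the fall of the pore genes was not tested, and in RNA from whole cultures fewer cycling cells and less RNA per cell cannot be told apart.

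**Figure D1:**
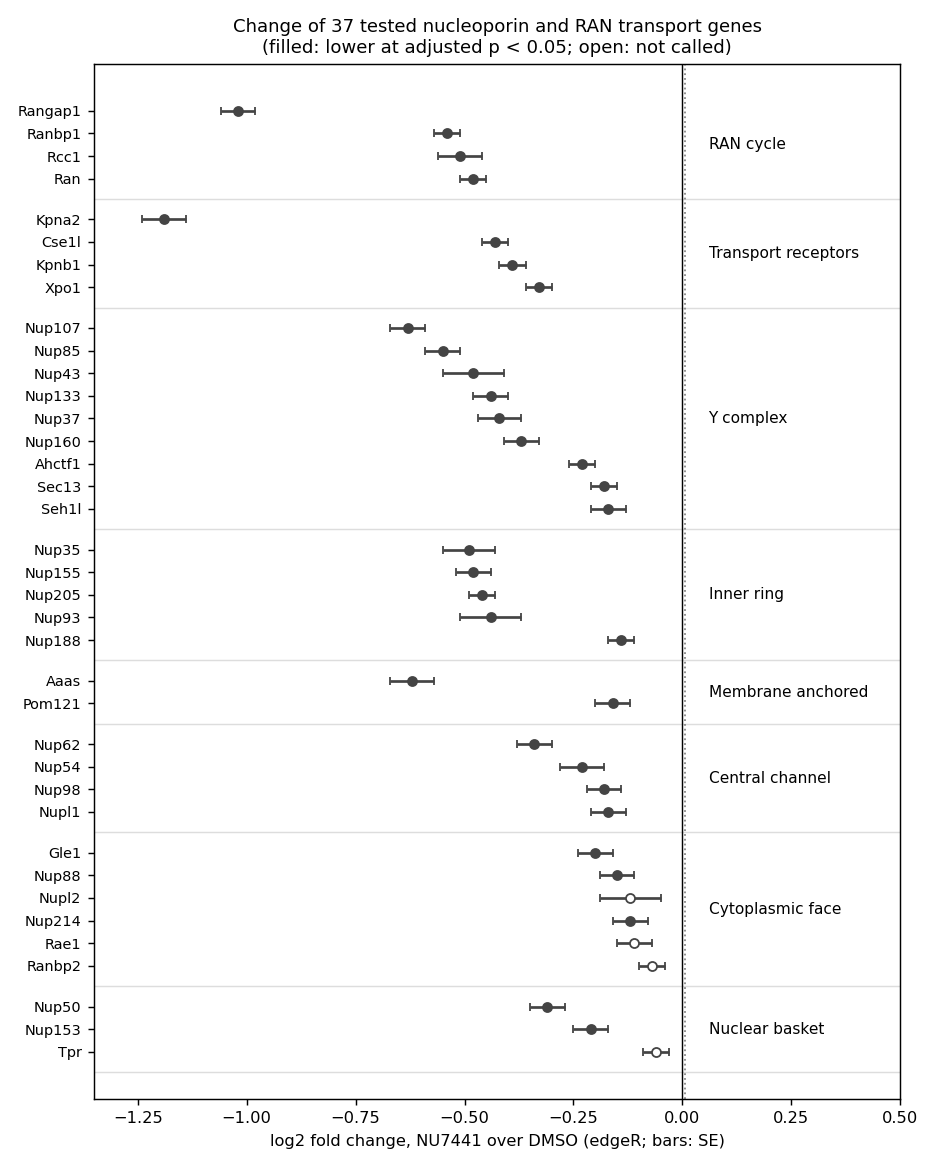
Log2 fold change of NU7441 over DMSO (x axis) for each of the 37 tested members, grouped by place in the pore or by role. Points are edgeR estimates with SE, filled where the gene was called lower and open where it was not called, and the dotted line is the median of all genes. Kpna2 (-1.19) and Rangap1 (-1.02) lie farthest left, and the genes of the cytoplasmic face lie between -0.20 and -0.07.

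The RAN cycle genes all fell, Rangap1 the most. Rangap1 encodes the GTPase-activating protein of RAN, which in mammals is attached by SUMO to the cytoplasmic filaments of the pore. It had 44.6, 47.9 and 43.9 CPM in NU7441 samples, against 93.7, 93.1 and 90.3 CPM in DMSO samples, a log2 fold change of -1.02 ± 0.04 (SE), which left it at 49.2% of DMSO. The groups were far apart, and the 3 samples of each lay within a few CPM of each other. Ran, the GTPase itself, had 189, 186 and 190 CPM in NU7441, against 271, 255 and 265 CPM in DMSO (-0.48 ± 0.03). Ranbp1, a cytoplasmic cofactor that helps RANGAP1 act, had 55.9, 55.6 and 57.3 CPM in NU7441 and 80.9, 84.1 and 80.1 CPM in DMSO (-0.54 ± 0.03). For both genes the highest NU7441 sample was well under the lowest DMSO sample. Rcc1, the chromatin-bound exchange factor, had 17.1, 17.8 and 18.9 CPM in NU7441 and 25.7, 26.1 and 24.8 CPM in DMSO (-0.51 ± 0.05).

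The balance between Rangap1 and Ran transcripts differed between groups. Per gene length, Rangap1 RPKM was 18.4% ± 1.05 of Ran RPKM in NU7441 and 26.7% ± 0.992 in DMSO (SD, n = 3 each). Rcc1 stood at 9.35% ± 0.444 of Ran in NU7441 and 9.53% ± 0.461 in DMSO, so that those ranges overlapped. Ranbp1 stood at 80.1% ± 0.726 in NU7441 and 83.3% ± 4.58 in DMSO, also with overlapping ranges. For Ranbp2, the large filament protein to which RANGAP1 is bound, the ratio went the other way, at 28% ± 0.789 of Ran in NU7441 and 21.1% ± 0.724 in DMSO. The level of Ranbp2 itself was not higher, at 219 CPM in NU7441 and 230 CPM in DMSO. Ran, the divisor, had 189 CPM in NU7441 and 264 CPM in DMSO. The ratio of Rangap1 to Ranbp2 RPKM was 0.658, 0.677 and 0.629 in NU7441 samples and 1.26, 1.27 and 1.26 in DMSO samples.

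Among the transport receptors, Kpna2 fell farthest of all members. It encodes importin alpha 1, the adaptor that joins classical nuclear localization signals to importin beta. Kpna2 had 73.1, 65.5 and 64.4 CPM in NU7441 samples, against 161, 155 and 147 CPM in DMSO samples, a log2 fold change of -1.19 ± 0.05, or 43.9% of DMSO. By log2 fold change it was number 140 from the lowest of 13784 genes, and Rangap1 was number 194. Kpnb1, importin beta, the carrier itself, had 484, 487 and 491 CPM in NU7441 and 643, 632 and 640 CPM in DMSO (-0.39 ± 0.03). Cse1l, the exportin that returns importin alpha to the cytoplasm, had 90.3, 88.5 and 89.2 CPM in NU7441 and 120, 122 and 120 CPM in DMSO (-0.43 ± 0.03). The spread within groups was about 1% of the mean for these last 2 genes. Xpo1, the exportin for leucine-rich export signals, had 167, 158 and 154 CPM in NU7441 and 204, 203 and 194 CPM in DMSO (-0.33 ± 0.03).

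**Figure D2:**
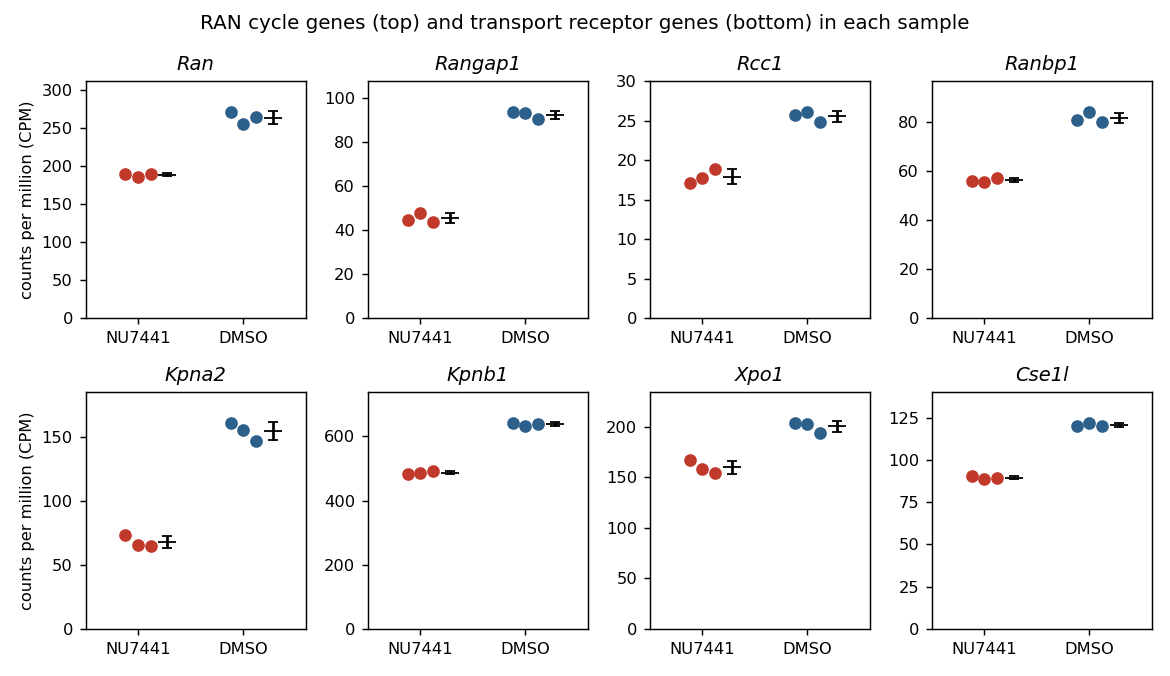
CPM (y axis, from 0) of the 4 RAN cycle genes and 4 transport receptor genes in each of 3 NU7441 and 3 DMSO samples. Points are samples and the bar beside them is the mean with SD. In every panel the NU7441 samples lie below the DMSO samples, and the largest relative differences are those of Kpna2 (on average 67.7 CPM in NU7441 and 154 CPM in DMSO) and Rangap1 (45.5 CPM in NU7441 and 92.3 CPM in DMSO).

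The mix of importin alpha transcripts differed between groups. Of the RPKM summed over 5 importin alpha genes, Kpna2 made up 39.6%, 37.6% and 36.3% in NU7441 samples and 55.9%, 55.2% and 53.9% in DMSO samples. The other 4, adaptors for partly different cargoes, had larger shares in NU7441 although all 4 were called lower. Since all are shares of the same sum, the larger share of these 4 together follows from the smaller share of Kpna2 and is no separate result. Kpna4 and Kpna6 are named after their values were seen. Kpna4 held 22.4% ± 0.285 in NU7441 and 16.9% ± 0.274 in DMSO, and its log2 change was -0.24 ± 0.03 (edgeR adjusted p = 7.4e-05). Kpna6 held 16.7% ± 0.347 in NU7441 and 11.4% ± 0.227 in DMSO (-0.10 ± 0.03, edgeR adjusted p = 0.027). The sum of the 5 was 68.3, 62.8 and 64.0 RPKM in NU7441 samples and 107, 103 and 102 RPKM in DMSO samples. Kpna7, an importin alpha of oocytes and early embryos, had 0 counts throughout, which allows up to 0.115 CPM in any NU7441 sample and 0.126 CPM in any DMSO sample if 3 read pairs, counted as 6, is taken as the limit. Among 7 exportins the mix differed less: Cse1l held 18.4% ± 0.212 in NU7441 and 20.4% ± 0.256 in DMSO, and Xpo1 held 23.1% ± 1.02 in NU7441 and 23.8% ± 0.757 in DMSO.

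**Figure D3:**
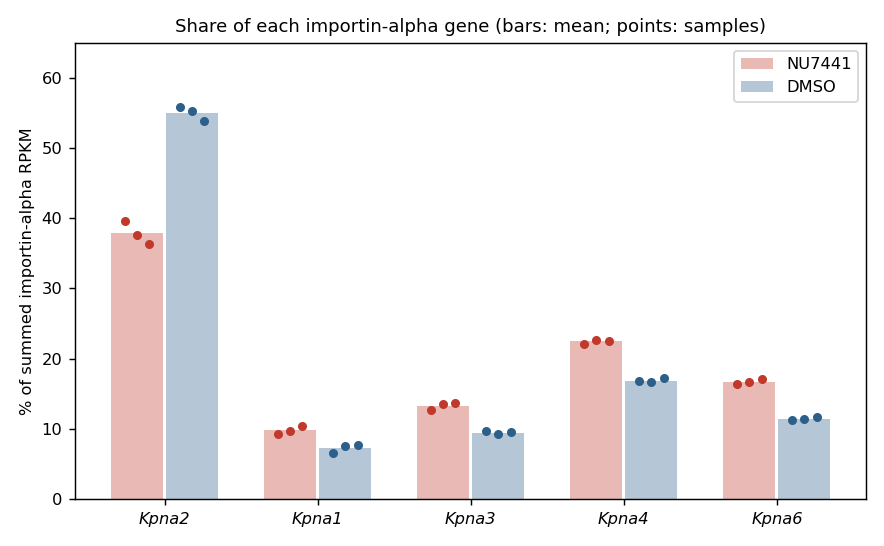
Share of the summed importin alpha RPKM (y axis, percent, from 0) held by each of 5 genes in NU7441 and DMSO. Bars are means of 3 samples and points are the samples. The Kpna2 share is 37.8% in NU7441 and 55.0% in DMSO, and those of the other 4 genes are higher in NU7441.

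All 9 genes of the Y complex fell, in a graded way. This complex, named for its shape, forms the outer rings of the pore, and in vertebrates it also binds kinetochores during mitosis. Nup107 had 30.5, 32.9 and 32.2 CPM in NU7441 samples, against 49.4, 49.8 and 48.9 CPM in DMSO samples (-0.63 ± 0.04). Nup85, which lies in a short arm of the Y, had 44.3, 47.4 and 45.9 CPM in NU7441 and 66.3, 66.0 and 69.3 CPM in DMSO (-0.55 ± 0.04). The other subunits known chiefly from the pore lay between -0.48 and -0.37, namely Nup43 (-0.48 ± 0.07), Nup133 (-0.44 ± 0.04), Nup37 (-0.42 ± 0.05) and Nup160 (-0.37 ± 0.04). The 3 smallest falls were those of Ahctf1 (-0.23 ± 0.03), which encodes ELYS, the protein that seeds new pores on chromatin, Sec13 (-0.18 ± 0.03) and Seh1l (-0.17 ± 0.04). Sec13 is also a coat protein of vesicles leaving the endoplasmic reticulum, and both Sec13 and Seh1l belong to the GATOR2 complex of amino acid sensing. Sec13 had 85.3, 88.2 and 86.3 CPM in NU7441 and 96.4, 97.4 and 101 CPM in DMSO. Nup107 RPKM relative to that of Sec13 was 0.155 ± 0.00388 in NU7441 and 0.211 ± 0.00706 in DMSO.

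In the inner ring, 4 of 5 genes fell by nearly the same amount and the fifth by less. Nup35 (-0.49 ± 0.06), Nup155 (-0.48 ± 0.04), Nup205 (-0.46 ± 0.03) and Nup93 (-0.44 ± 0.07) encode scaffold proteins that bind each other and the pore membrane. Nup205 had 114, 115 and 114 CPM in NU7441 samples, against 160, 159 and 153 CPM in DMSO samples. Nup188, a relative of NUP205 that binds NUP93 in its place, had 91.8, 97.1 and 95.5 CPM in NU7441 and 105, 103 and 105 CPM in DMSO (-0.14 ± 0.03). The ratio of Nup205 to Nup188 RPKM was 1.13, 1.08 and 1.09 in NU7441 samples and 1.39, 1.41 and 1.32 in DMSO samples, without overlap. Nup93 had 41.3, 44.5 and 41.5 CPM in NU7441 and 54.0, 52.2 and 65.7 CPM in DMSO. DMSO replicate 3 stood above the other 2 for this gene, and without it the log2 fold change of Nup93 was -0.32.

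The parts tied to the pore membrane differed. Aaas encodes ALADIN, the protein altered in triple A syndrome in humans, which is held at the pore by the membrane protein NDC1. It had 23.6, 24.8 and 25.2 CPM in NU7441 samples, against 40.3, 38 and 35.5 CPM in DMSO samples (-0.62 ± 0.05), the largest fall after Nup107 among the 29 tested nucleoporins of the group. The gene for NDC1, given in the table under its older symbol Tmem48 and no member of the group, fell too, with 12.5 ± 0.303 CPM in NU7441 and 24.5 ± 0.530 CPM in DMSO (-0.97 ± 0.05, edgeR adjusted p = 2.5e-09). Pom121, a transmembrane nucleoporin, had 54.9, 54.8 and 57.1 CPM in NU7441 and 64.2, 60.6 and 62.0 CPM in DMSO (-0.16 ± 0.04). Nup210, the other transmembrane member, was the gene removed by the low-count filter. It had 0 counts in all NU7441 samples and 0, 0 and 2 counts in DMSO samples, where 2 counts are probably 1 read pair, and no fold is given.

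Channel, filament and basket genes had medians nearer to 0 than the Y complex (-0.42) and the inner ring (-0.46). The 4 central channel genes, whose products carry the repeats that transport receptors bind, had a median of -0.21. Nup62 had 34.3, 35.6 and 36.5 CPM in NU7441 samples, against 44.8, 45.4 and 45.0 CPM in DMSO samples (-0.34 ± 0.04). Its partners in the channel, Nup54 (-0.23 ± 0.05) and Nupl1, the gene for NUP58 (-0.17 ± 0.04), fell less, as did Nup98 (-0.18 ± 0.04), which encodes both NUP98 and the Y complex protein NUP96 in 1 precursor. The table also has a readthrough gene, Nup62-il4i1, covering the whole of Nup62, at 0.828 CPM in NU7441 and 0.961 CPM in DMSO, and the sources used here do not say how reads were divided between them.

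The cytoplasmic face had the smallest median, -0.12. Of its 6 genes 3 were called lower and 0 higher, against 16.6% lower and 14.1% higher over all tested genes. Gle1, an activator of the helicase that strips proteins from exported mRNA, had 33.4, 36.1 and 35.3 CPM in NU7441 samples, against 39.5, 39.9 and 40.7 CPM in DMSO samples (-0.20 ± 0.04). Nup88 (-0.15 ± 0.04) and its partner Nup214 (-0.12 ± 0.04) were also called lower. The call of Nup214 was lost with upper-quartile scaling and without DMSO replicate 2, DMSO replicate 3 or NU7441 replicate 1. The other 3 were not called: Nupl2, the gene for NUP42 (-0.12 ± 0.07), Rae1, an mRNA export and mitotic checkpoint factor (-0.11 ± 0.04), and Ranbp2 (-0.07 ± 0.03). Ranbp2 had 214, 223 and 220 CPM in NU7441 and 234, 232 and 226 CPM in DMSO, so its groups were close but did not overlap.

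In the nuclear basket, Nup50, a cofactor of importin alpha release, fell most, with 55.4, 54.7 and 57.8 CPM in NU7441 samples, against 71.6, 68.0 and 67.9 CPM in DMSO samples (-0.31 ± 0.04). Nup153, which anchors the basket to the ring, had a log2 fold change of -0.21 ± 0.04. Tpr, which forms the basket's filaments, was not called, with 304, 299 and 304 CPM in NU7441 and 323, 316 and 308 CPM in DMSO (-0.06 ± 0.03). Its groups did not overlap, but were only a few CPM apart.

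Levels of different members can be set side by side only per gene length, for which the authors' RPKM values were used. Leaving out Nup210, means lay between 2.69 and 61.1 RPKM in NU7441 and between 2.98 and 87.2 RPKM in DMSO. In both groups Ran and Kpnb1 had the highest levels and Nup133, Nup35 and Nupl2 the lowest. The ranges of Ran and Kpnb1 overlapped in NU7441, at 59.8 to 62.4 RPKM for Ran and 60.5 to 61.7 RPKM for Kpnb1, but not in DMSO, at 83.7 to 89.7 RPKM for Ran and 80.3 to 82.5 RPKM for Kpnb1. Kpna2 stood at number 6 with 24.6 RPKM in NU7441, and at number 4 with 57.3 RPKM in DMSO, where it overlapped with Sec13. Rangap1 stood at number 16 with 11.2 RPKM in NU7441 and at number 10 with 23.3 RPKM in DMSO.

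The subunits of a complex did not have like levels of RNA. In the Y complex the means in NU7441 were between 3.46 RPKM for Nup133 and 49.3 RPKM for Sec13, and in DMSO between 4.79 and 57.2 RPKM for the same genes. Nup85 was next after Sec13, at 15.7 RPKM in NU7441 and 23.6 RPKM in DMSO. In the inner ring they were between 3.23 RPKM (Nup35) and 13.6 RPKM (Nup205) in NU7441 and between 4.63 and 19.1 RPKM in DMSO. Neighbours in the middle of the order were often not separate: in DMSO the ranges of Nup50, Nup54, Nup153, Nup37, Gle1 and Nup155 overlapped from each to the one named after it, at means of 11 to 9.51 RPKM. An error in the deposited gene length would shift a gene's RPKM alike in all samples. Variation between samples of a group was small for members, with a coefficient of variation in CPM of 0.776% to 7.06% (median 2.97%) in NU7441 and 0.438% to 12.8% (median 2.54%) in DMSO, highest there for Nup93.

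**Figure D4:**
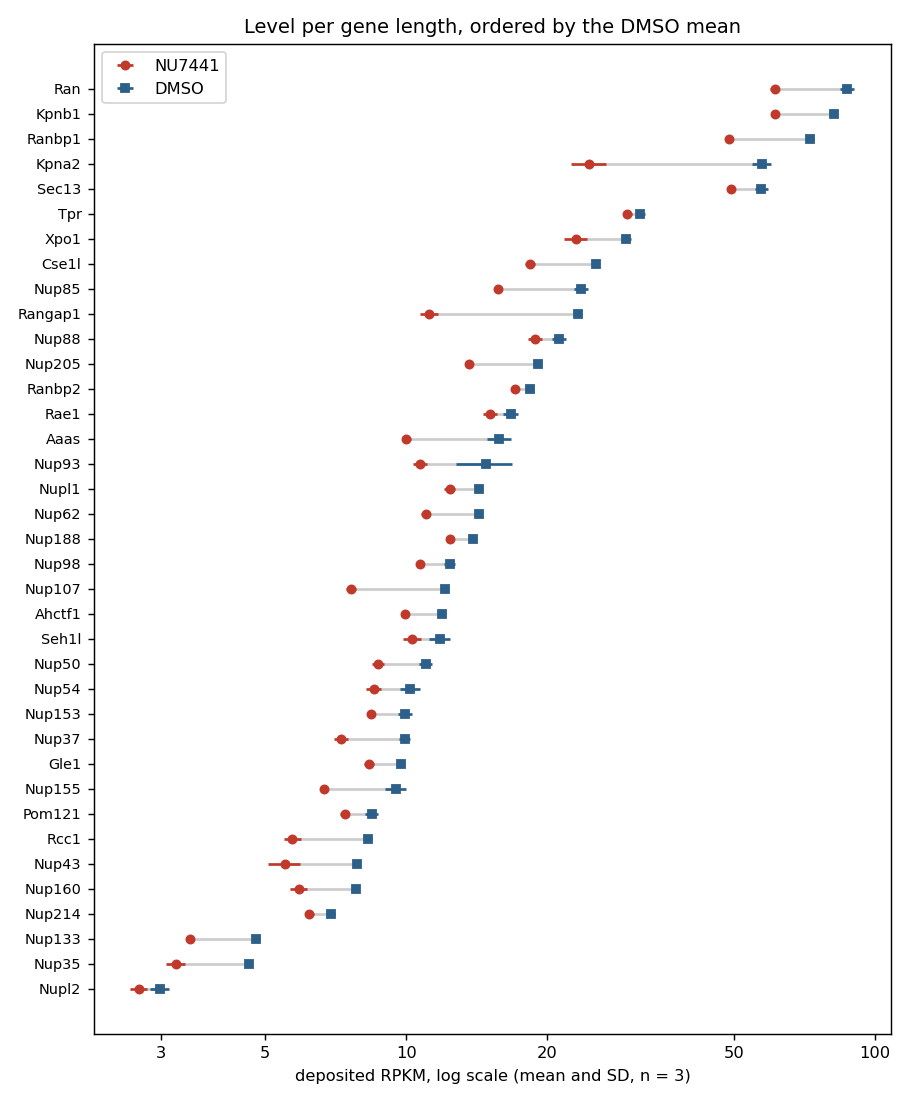
Mean deposited RPKM (x axis, log scale) with SD over 3 samples for 37 members, ordered from top to bottom by the DMSO mean, in NU7441 (circles) and DMSO (squares). Ran is at the top with 61.1 RPKM in NU7441 and 87.2 RPKM in DMSO, and the longest lines between groups are those of Kpna2 and Rangap1. Nup210, at or near 0, is left out.

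Other genes of nuclear transport, from lists of non-members, had medians nearer to 0 than the -0.34 of all tested members. The median of the other importins and exportins was still farther from 0 than that of the cytoplasmic face (-0.12). The counts of these lists stand beside 16.6% lower and 14.1% higher over all tested genes. Of 21 other importins and exportins 20 were tested, of which 14 were lower and 0 higher (median -0.15). Ipo9, a carrier of histones among other cargoes, had 157 ± 2.87 CPM in NU7441 and 191 ± 1.47 CPM in DMSO (-0.29 ± 0.03, edgeR adjusted p = 2.1e-06). Ipo5 (-0.28 ± 0.03, edgeR adjusted p = 4.6e-06), Ipo11 (-0.30 ± 0.03) and Xpo5, which exports pre-miRNAs (-0.28 ± 0.04), fell similarly. Of 11 accessory genes of the pore and of RAN, 2 were lower and 0 higher (median -0.01). These were Tmem48 and Ranbp3, a cofactor of XPO1 (-0.18 ± 0.03, edgeR adjusted p = 0.0012). Nutf2, which carries RAN back into the nucleus, had 5.80 ± 0.901 CPM in NU7441 and 6.35 ± 0.295 CPM in DMSO (-0.13 ± 0.11, edgeR adjusted p = 0.43), and was named after its value was seen.

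Of 16 tested genes of bulk mRNA export 6 were lower and 0 higher (median -0.08). Alyref, the adaptor that brings the export receptor to mRNA, had 29.7 ± 0.0991 CPM in NU7441 and 44.2 ± 1.79 CPM in DMSO (-0.58 ± 0.04, edgeR adjusted p = 3.2e-08). Nxt1, the small partner of that receptor (-0.62 ± 0.08), Thoc3 (-0.33 ± 0.06) and Ddx39b (-0.17 ± 0.03) fell as well, while the receptor gene Nxf1, named after its value was seen, had 119 ± 6.05 CPM in NU7441 and 125 ± 6.10 CPM in DMSO and was not called. Of 15 genes of the SUMO cycle, the modification that attaches RANGAP1 to the pore, 4 were lower and 0 higher (median -0.03). Sae1, a subunit of the SUMO-activating enzyme, fell by 0.41 on the log2 scale and its partner Uba2 by 0.15. For Senp1, a SUMO protease, the log2 change was -0.39 ± 0.04 (edgeR adjusted p = 2.1e-06), and for Sumo2 it was -0.09 ± 0.03.

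**Figure D5:**
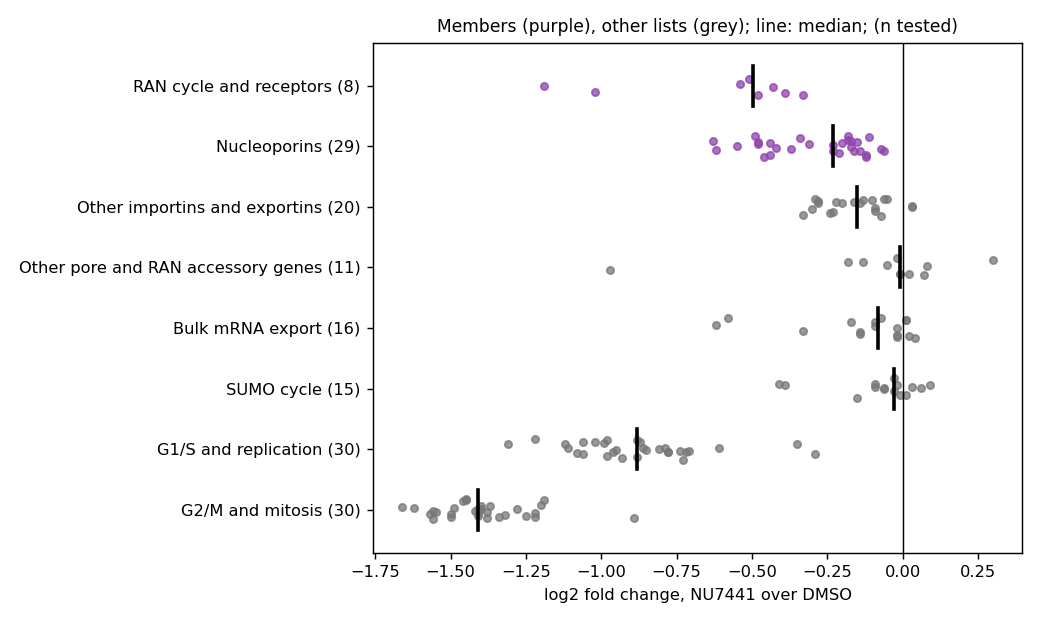
Log2 fold change of NU7441 over DMSO (x axis) for the tested genes of the members in 2 parts and of 6 other lists. Points are genes, scattered vertically for legibility, and black lines are medians. The median is -0.50 for the RAN cycle and receptor genes and -0.23 for nucleoporins, between those of the replication list (-0.88) and of the mRNA export list (-0.08).

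Genes of other names overlap some members in the deposited coordinates, on build mm10. Pom121 shares 658 bases with Nsun5, Nup62 shares 239 bases with Atf5, Nup88 shares 35 bases with Rabep1 and Tpr shares 524 bases with Prg4, each on the opposite strand in GENCODE M21. Tpr also shares 218 bases with BC003331, whose strand was not found under that symbol and which had 56.5 CPM in NU7441 and 55.7 CPM in DMSO, and Seh1l shares 19455 bases with 4930549G23Rik on the opposite strand, at 0.464 CPM in NU7441 and 0.47 CPM in DMSO. Mir719, a miRNA, shares 110 bases with Nupl1. The deposited row of Mir3110 covers all of Nup160 (59114 bases) and Cse1l (40294 bases), and that of Mir684-1 all of Kpna2 (10897 bases) and Kpnb1 (28183 bases). Such spans are far longer than a miRNA gene, so these overlaps are probably artefacts of the deposited coordinates. The rows of all these miRNAs had 0 counts. Atf5 had 263 CPM in NU7441 and 269 CPM in DMSO and Rabep1 83.4 CPM in NU7441 and 83.9 CPM in DMSO, and the sources used here do not say whether strand was used in counting. Kpna2 lies on chromosome 11 at 106988629 to 106999525 and Rangap1 on chromosome 15 at 81704248 to 81729919. An annotated pseudogene of Kpna2, Kpna2-ps, is in GENCODE M21 but has no row of its own in the table, and reads of the 2 could have been mixed, so the value of Kpna2 is uncertain to that extent.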

How the data were processed

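For each gene the authors deposited whole-number counts and RPKM per sample and 1 length, per the file headers. Tools named in the submitters' processing notes are HTSeq, bcl2fastq and TopHat2 (2.0.6), with build mm10 and no roles or settings. The table has 0 odd counts, as if each pair of reads counted 2, and counts were tested as deposited. The RPKM values deposited by the authors were used only for levels between genes and for shares.

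Low-count genes were removed with filterByExpr (count 10, total 15). TMM scaling and edgeR 4.0.16 (R 4.3.3) gave a quasi-likelihood test across all genes (group as the only term, two-sided, Benjamini-Hochberg adjustment, threshold 0.05). The SE is the log2 fold change divided by the square root of F. CPM uses TMM-scaled totals. The members, their groups and the lists were chosen with earlier results of these data known. All members are accounted for, and of each other transport list up to 4 genes with the lowest adjusted p are named, as are genes that overlap a member; cell cycle lists are given by counts and sums. The procedure was tested on simulated counts of 13674 genes, where 12 of 204 calls were false. Far fewer genes were changed there than were called in these data, so that error share may not carry over. Alternatives were other scalings, DESeq2 1.42.0, limma 3.58.1, no filter, a robust fit, counts divided by 2, a replicate block and leaving out each sample. Limits for counts of 0 cover counting error only, whereas SE and SD include the spread between samples. Promoter letters were searched on both strands. Protein sequences were not used here.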

Additional observations from a re-analysis of the deposited data

How the results depend on the processing

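The number of members called lower was 33 and lay between 32 and 36 over the 15 alternatives, the number called higher was 0 in each of them, and the median log2 fold change was between -0.37 and -0.32. Over all genes 2290 were called lower in the main fit. Under the alternatives this number lay between 1886 (without DMSO replicate 3) and 2703 (replicate block). The members were chosen with this contrast known, so nothing is read from how steady their count was. Of the 37 tested members, 33 kept their direction and their side of the threshold under every alternative, and the other 4 kept their direction. Nup214 lost its call with upper-quartile scaling (edgeR, adjusted p = 0.065) and when DMSO replicate 2, DMSO replicate 3 or NU7441 replicate 1 was left out (0.070 to 0.075), and Ranbp2, Rae1 and Tpr gained a call under some alternatives. With the replicate block 36 members were lower, and calls over all genes numbered 5120, against 4231 without it. Deviations of same-numbered samples correlated at 0.134, 0.088 and 0.0471, and 6 of 6 samples correlated best with their own number. This is only a weak hint of pairing from the data. The 6 matches come from the same set of correlations and are not independent of each other. The design does not say that equal numbers belong together, so the main fit has no replicate term. Of the SUMO cycle genes, between 0 and 1 were called higher with each sample left out, the 1 without DMSO replicate 1. The cause of these changes was not tested. With 3 samples a group, differences of about 0.1 on the log2 scale lie near the limit of what the fit calls.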
